A study of Mus musculus with 6 samples.

Results

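The 41 genes described here encode the basement membrane of the epidermis and the hemidesmosomes that anchor basal keratinocytes to it. They were chosen by symbol, by what they encode, from the 23337 genes of the deposited table, and each of the 41 was found. By role they were 9 laminin chains, netrin 4, 4 nidogens and heparan sulfate proteoglycans, 6 type IV collagen chains, 3 other basement membrane collagens, 6 hemidesmosome genes, 2 further laminin receptors, 5 genes of the Fraser complex and nephronectin group, and 5 matricellular or associated genes. The libraries were made from tumour cells of the ear epidermis of mice with basal cell carcinoma, which received tamoxifen at an age of 4 weeks and were sampled 6 weeks later. The wild-type group (3 libraries) was R26-SmoM2/+ K14CreER and the knockout group (3 libraries) was R26-SmoM2/+ Yapfl/fl K14CreER. Both groups therefore carried SmoM2, an activated mutant of Smoothened that turns on Hedgehog signalling, and the same tamoxifen-inducible Cre, which the keratin 14 promoter restricts to basal keratinocytes and cells derived from them. The sources used here do not say whether a library came from 1 animal or from a pool, and p-values then measure only the spread between these libraries, which may be technical.

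A basement membrane is a thin matrix sheet under epithelia, built from a laminin network and a type IV collagen network that nidogens, perlecan and agrin connect. Basal keratinocytes hold on to it through the integrin made of Itga6 and Itgb4, which the plakins encoded by Plec and Dst tie to keratin filaments inside the cell, and through the transmembrane collagen Col17a1. Laminin chains assemble as trimers of an alpha, a beta and a gamma chain, and type IV collagen as trimers of alpha chains. YAP, the product of Yap1, is a transcriptional co-activator that works with TEAD factors, and the comparison asked which transcripts differed when Yap1 was deleted in the tumour cells.

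Yap1 itself (chromosome 9, 7931999 to 8004596, GRCm38) checks the labels: its normalized counts were 5765, 6004 and 5573 in wild-type libraries 1 to 3, against 591, 773 and 1764 in knockout libraries 1 to 3. The means were 5781 ± 216 and 1043 ± 631 (SD, n = 3), and knockout library 3 held the most residual transcript. Reads per library ran from 15405490 to 25260431. By their label codes, replicates 1 and 2 of both groups belong to a DM22 series and replicate 3 of both to a DM24 series. Xist, expressed from the inactive X chromosome, had at least 58654 normalized counts in both DM24 libraries and at most 15.1 in the DM22 libraries, so sex, depth and whatever else the codes mark cannot be told apart. Basal keratinocyte markers (6 of 6 tested, Krt5 and Krt14 among them) summed to 422434 to 577884 normalized counts among wild-type libraries and 457471 to 500554 in knockout. Among markers of other cells, the 9 immune markers in the table summed to 79.9 to 133 in wild type and 112 to 135 in knockout, and the 10 endothelial markers to 168 to 245 and 209 to 223, with Emcn at 0 in each library. The 8 mural and muscle markers summed to 8934 to 11144 and 10639 to 11914, of which Cspg4 made up 7986 to 10854 while Des and Rgs5 had at most 2.53. The 10 fibroblast markers summed to 3430 to 10405 and 2027 to 7623, most of it Dcn, and the 6 Schwann cell markers to 1005 to 1280 and 1131 to 1268. Ngfr (415 to 707) and Mbp (343 to 668) made up most of the Schwann sum, with Sox10 at most 14.3 and Cdh19 at most 0.84. Most of the immune sum was Cd68 (73.1 to 126), with Ptprc at most 3.36. In bulk libraries, fewer cells of a type and less RNA per cell cannot be told apart.

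Levels of different genes are compared here as normalized counts per kilobase of exon, averaged over the 6 libraries. Col17a1, the hemidesmosomal transmembrane collagen, stood highest at 12726, followed by the laminin alpha-5 receptor Bcam at 4621, the proteoglycans Agrn and Hspg2 (perlecan) at 3145 and 2857, and the laminin alpha-5 chain Lama5 at 2800. At the other end, Nid2 had 0 to 2 reads in every library and was not tested, and Lama1, Lama2, Lamc3 and Col15a1 lay between 1.45 and 5.53 per kilobase. Together the 41 genes took 1.62% to 1.93% of the reads of a library.

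**Figure D1:**
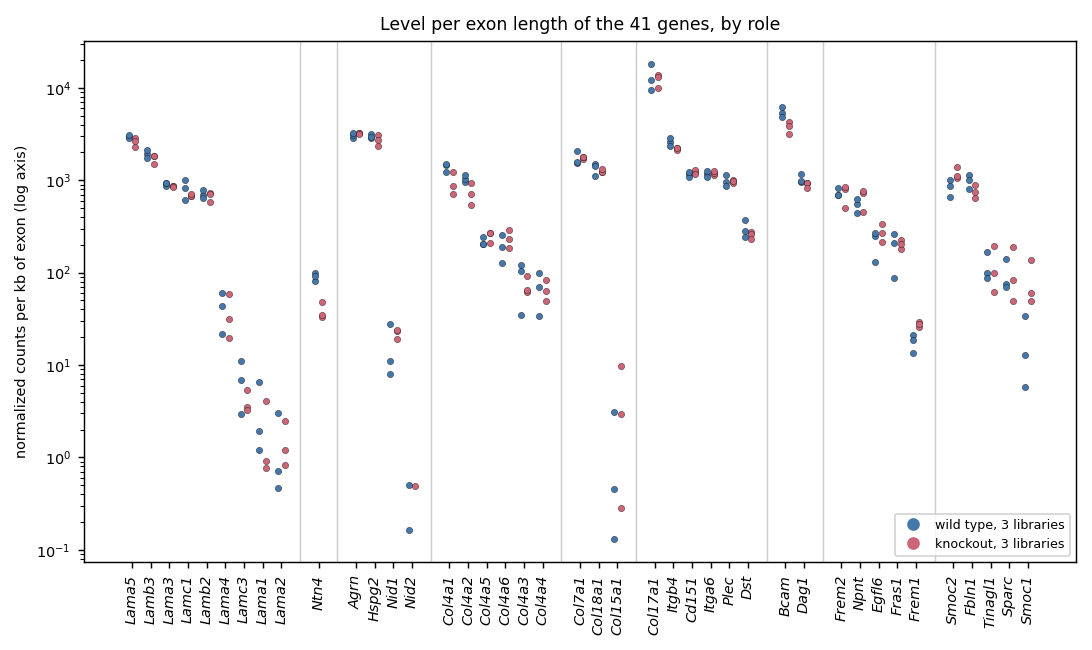
Normalized counts per kilobase of exon (log axis) of each gene, with 1 point per library, wild type in blue and knockout in red, ordered by level within each role; values of 0 are not drawn. Col17a1, Bcam, Agrn, Hspg2 and Lama5 stand highest, and Nid2, Lama2, Lama1 and Col15a1 lowest.

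Few of the members passed a test. Of the 40 tested members, 23 had a log2 difference (knockout minus wild type, on the log2(normalized count + 1) scale) below 0, with a median of −0.07, against 6967 of all 13671 genes tested with a median of −0.0034. Limma, the main test, called 0 genes (0%) and 0 members at an adjusted p under 0.05, with 759 genes (5.55%) and 8 members at an unadjusted p under 0.05, and edgeR called 0 genes as well. Limma did not call the deleted gene Yap1 either (log2 difference −2.63, adjusted p = 0.517), so a member that it did not call is not shown to be unchanged. DESeq2 on the recovered reads called 72 genes (0.527%, of them 0.351% lower) and 1 member, Ntn4, lower. When the replicate number entered as a block, DESeq2 called 170 genes (1.24%), 0.834% lower and 0.410% higher. When the label code entered as a term it called 299 genes (2.19%), 1.46% lower and 0.724% higher. Under either design the members called were Ntn4 and Bcam, lower, and Smoc1, higher. Fitted on the DM22 libraries alone, limma called 2 genes (0.0146%), both lower and neither a member, and DESeq2 called 254 genes (1.86%). The 5 members among the 254 were Ntn4 and Bcam, lower (background 1.06%), and Smoc1, Smoc2 and Npnt, higher (background 0.797%). Leaving out 1 library added members to the DESeq2 calls. Without a term, Col4a1 and Col4a2 joined without knockout library 1 (54 of 13671 genes called). Nid1 joined without wild-type library 3 (226 genes called). With the code as a term, Frem1 and Col4a1 joined without wild-type library 1 (130 genes called). Lamc1, Fbln1 and Col4a6 joined under that term without wild-type library 2 (495 genes called). Col4a1 and Col4a2 joined under the same term without knockout library 1 (139 genes called). The groups did not overlap for 11 of the 40 tested members, or 27.5%, against 11.0% of all genes tested. Of those 11, 8 were lower in each knockout library (background 5.87%) and 3 higher (background 5.08%). The lower members were Ntn4, Bcam, Dag1, Col4a1, Col4a2, Lama3, Lama5 and Itgb4, and the higher ones Smoc1, Smoc2 and Frem1. Leaving out wild-type library 2 or wild-type library 3, which leaves fewer values to overlap, raised the 11 members to 17 in either case, or 42.5%, against 24.5% and 27.7% of all genes tested.

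**Figure D2:**
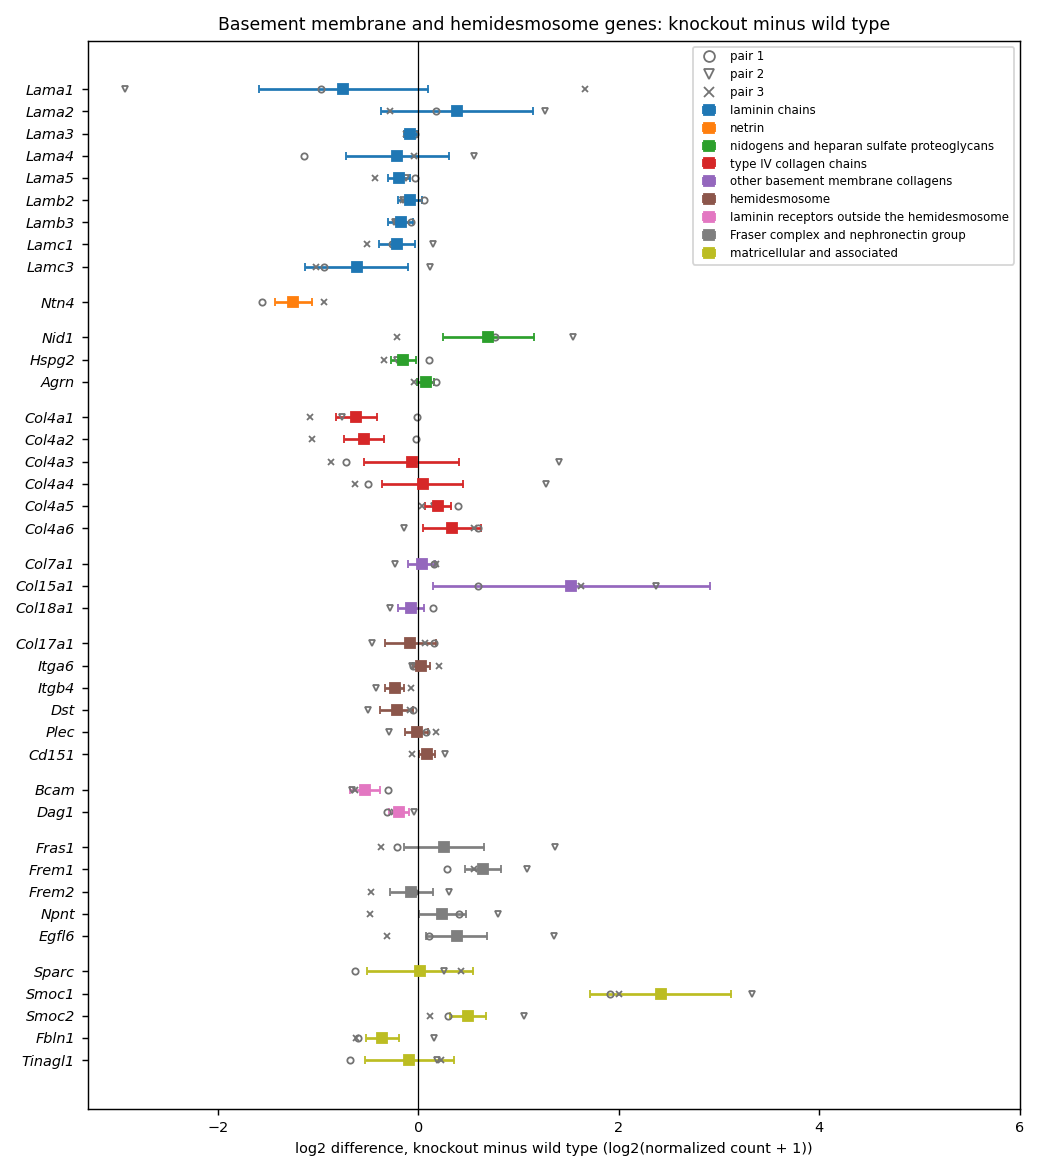
Log2 difference (knockout minus wild type, log2(normalized count + 1)) of the 40 tested genes by role, as squares with the standard error from limma, and the difference within each same-numbered pair of libraries as open or crossed symbols. Ntn4 lies farthest below 0 among the genes with narrow errors, Smoc1 farthest above, and Col4a1 and Col4a2 have a difference near 0 in pair 1 only.

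Netrin 4 was the member that DESeq2 called in each of the 3 designs. Ntn4 (chromosome 10, 93640681 to 93747207, plus strand, protein coding) encodes a laminin-related secreted protein of basement membranes that binds laminin gamma chains and can open the laminin network. Wild-type libraries 1 to 3 held 367, 307 and 349 normalized counts of its transcript, and knockout libraries 1 to 3 held 124, 129 and 181. The highest knockout library lay well below the lowest wild-type library, and both knockout DM22 libraries lay below the DM24 one. The means were 341 ± 30.3 and 145 ± 31.4 (SD, n = 3), a fall of 57.5%. On the log2 scale the difference was −1.25 ± 0.18 (SE), or −1.56, −1.24 and −0.94 within pairs 1 to 3 (libraries with the same number). In DESeq2 its adjusted p was 1.5e-05 with no term, 9.7e-05 under the replicate block and 1.4e-07 under the code term. Each of the 6 DESeq2 fits that left out a library also called it (highest adjusted p = 0.00902). Limma gave adjusted p = 0.517 with no term, 0.218 under the block and 0.117 under the code term, and edgeR 0.589, 0.242 and 0.128.

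Because the study concerns YAP-TEAD and AP-1, the 250 bases upstream of the RefSeq start of Ntn4 (GRCm38.p6, chr10:93640799-93641048, plus strand, 73.2% G or C) are shown. They hold neither the TEAD letters GGAATG nor the AP-1 letters TGANTCA on either strand, so none of the bases is in capitals. In GENCODE M21 they hold no exon and lie inside the annotated Ntn4 gene, which starts upstream of them at 93640681.
Ntn4: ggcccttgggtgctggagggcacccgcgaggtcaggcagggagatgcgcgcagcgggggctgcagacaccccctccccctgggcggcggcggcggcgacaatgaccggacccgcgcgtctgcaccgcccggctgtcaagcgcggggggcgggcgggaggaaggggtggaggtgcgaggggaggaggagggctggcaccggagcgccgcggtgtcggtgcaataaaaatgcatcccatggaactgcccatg

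Promoter windows of 300 bases (250 before to 50 after a start) were found in the RefSeq table for 28 of the 41 genes, 38 windows in all. The TEAD letters were in 6 of the 38 windows, those of Col18a1, Col4a6, Frem2, Lamb3, Nid1 and Tinagl1, against 14.7% of all 32851 windows. The AP-1 letters were in 1 of the 38, that of Tinagl1, against 7.81% of all windows. Of the genes with groups that did not overlap, none of those with a window held either motif. The matches in 3 of the genes are shown with their surroundings, in capitals, 5′ to 3′ on the strand of the gene, to set beside Ntn4. They lie at chr3:53657538-53657567 (minus strand), chr13:13437425-13437454 (plus strand) and chr4:130175266-130175296 (minus strand), and the last holds an AP-1 match followed by a TEAD match that does not overlap it. A match or its lack describes these letters in these windows and says nothing of binding.
Frem2: agggcgcccctcCATTCCaaccaacctgtt
Nid1: cgggttggatccGGAATGctgggaaccaac
Tinagl1: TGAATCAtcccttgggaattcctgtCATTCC

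No laminin chain passed a test over all 6 libraries. Log2 differences lay below 0 for 8 of the 9 chains (median −0.20), with pair medians of −0.07, −0.10 and −0.22, and none passed limma or DESeq2 in any of the 3 designs. Lama5 (chromosome 2, 180176373 to 180225859), the alpha chain of the laminins that underlie many epithelia, had 33788, 32971 and 35218 normalized counts among wild-type libraries and 32911, 30301 and 26127 in knockout. The groups did not overlap, yet knockout library 1 lay only just below the lowest wild-type library. The log2 difference was −0.20 ± 0.11 (SE; limma adjusted p = 0.935). Lama3, the alpha chain of laminin-332, which binds the hemidesmosomal integrin, had 9410, 9938 and 9993 in wild type and 9206, 9292 and 9193 in knockout. That is a difference of 5.62% between the means, and again all knockout libraries lay lowest (limma adjusted p = 0.986). Its partner Lamb3 overlapped between the groups, at 11521 to 14159 and 9869 to 12104.

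The remaining chains were divided by level. Lamb2 and Lamc1, chains shared by several laminins, had log2 differences of −0.09 ± 0.12 and −0.21 ± 0.18 (SE). Lama4, a chain of vessel and muscle basement membranes, overlapped widely, with 260 to 728 normalized counts among wild-type libraries and 238 to 706 in knockout. Lama1, the chain of embryonic basement membranes, was at 18.5, 63.2 and 11.7 in wild type and 8.92, 7.42 and 39.2 in knockout, and its pairs went in both directions (−0.97, −2.93 and 1.66). Lama2 and Lamc3 were as scarce, with 7.66 to 49.4 and 18.2 to 67.6 normalized counts over all 6 libraries.

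The connectors of the laminin and collagen networks were abundant, apart from the nidogens. Agrn (agrin), a heparan sulfate proteoglycan that binds laminin, had 26901, 28391 and 30099 normalized counts among wild-type libraries and 30421, 30228 and 29185 in knockout, a log2 difference of 0.07 ± 0.08 (SE). Hspg2 (perlecan) had one of −0.15 ± 0.13 (SE), with knockout library 3 the lowest of the 6 at 33459. Nid1 (nidogen-1), which links laminin to type IV collagen, had 77.3, 55.5 and 192 in wild type and 132, 164 and 166 in knockout. Wild-type library 3 was the highest and the other wild-type libraries the lowest. Its log2 difference of 0.70 ± 0.46 (SE) did not pass (adjusted p = 1.0 in DESeq2). Of the fits run, the DESeq2 fit without wild-type library 3 alone called it higher (adjusted p = 0.00688).

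**Figure D3:**
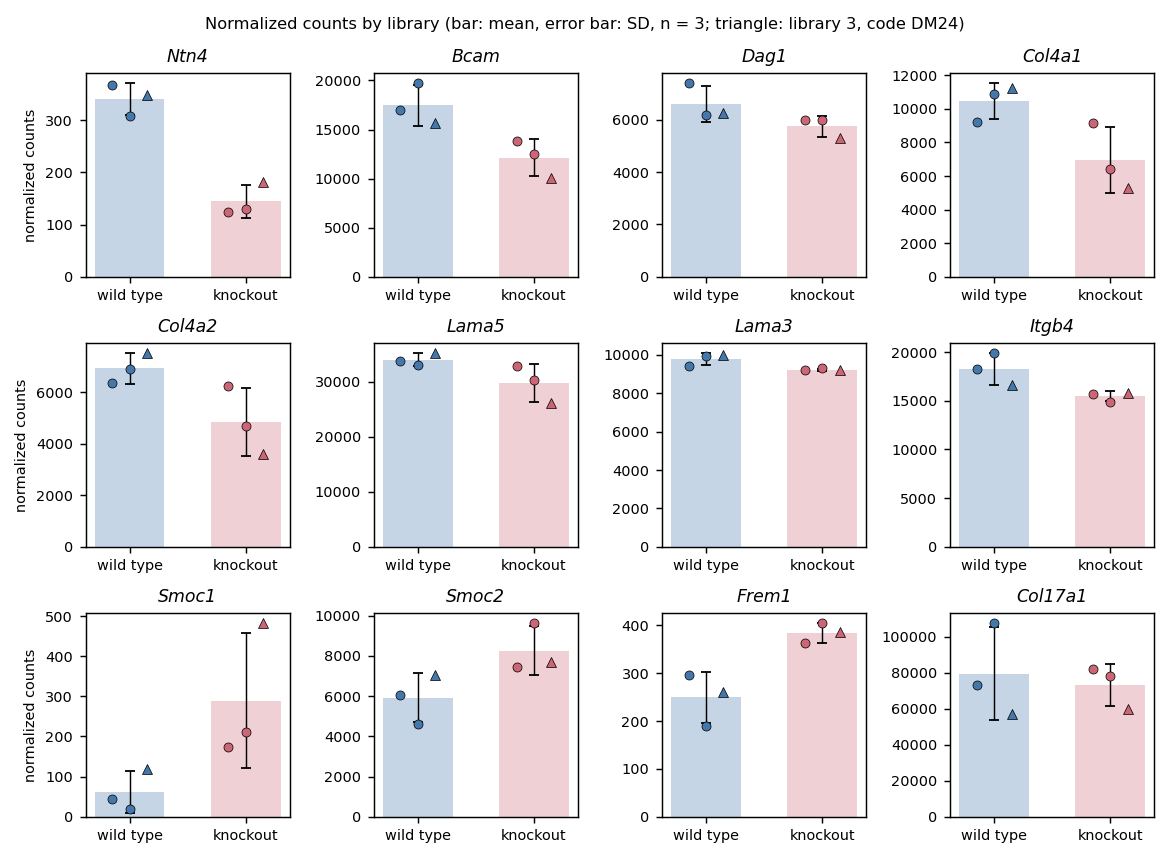
Normalized counts of 12 genes by library, with bars for the mean and error bars for the SD (n = 3), circles for the DM22 libraries 1 and 2 and triangles for the DM24 library 3. Ntn4, Bcam, Dag1, Col4a1, Col4a2, Lama5, Lama3 and Itgb4 are lower in each knockout library, Smoc1, Smoc2 and Frem1 higher, and Col17a1 overlaps.

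Log2 differences of the type IV collagen chains lay on both sides of 0. The 6 chains lie as 3 pairs of neighbouring genes that are transcribed away from each other. Col4a1 and Col4a2, which form the common trimer of basement membranes, lie on chromosome 8 (11198423 to 11312826, minus strand, and 11312805 to 11449287, plus strand), so that their annotated first exons share 22 bases. Col4a1 had 9239, 10904 and 11259 normalized counts among wild-type libraries and 9152, 6446 and 5313 in knockout. Col4a2 had 6351, 6882 and 7521 in wild type and 6243, 4667 and 3611 in knockout. For both, knockout library 1 was level with wild-type library 1, and knockout library 3 was the lowest of the 6. The log2 differences were −0.62 ± 0.21 and −0.55 ± 0.20 (SE), with −0.01, −0.76 and −1.08 in pairs 1 to 3 for Col4a1 and −0.02, −0.56 and −1.06 for Col4a2. Neither passed DESeq2 without a term (adjusted p = 0.331 and 0.505), under the block (0.145 and 0.251) or under the code term (0.0932 and 0.155). Without knockout library 1, DESeq2 called both lower (adjusted p = 0.000262 and 0.00742 without a term). The ratio of Col4a1 to Col4a2 per kilobase lay between 1.29 and 1.41 in wild type and between 1.22 and 1.30 in knockout.

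Col4a3 and Col4a4, chains of a trimer best known from the kidney glomerulus, had no common direction over the pairs. Col4a3 had 1030, 349 and 1198 normalized counts among wild-type libraries and 623, 923 and 652 in knockout. Col4a4 had 743, 364 and 1042 in wild type and 524, 878 and 670 in knockout. Wild-type library 2 was the lowest for both genes, and the pair differences were −0.72, 1.40 and −0.88 for Col4a3 and −0.50, 1.27 and −0.64 for Col4a4. The X-linked Col4a5 and Col4a6, which form a chain set of skin basement membranes, had log2 differences of 0.19 ± 0.13 and 0.33 ± 0.29 (SE). For both, the knockout mean was above the wild-type mean, at 1677 ± 243 against 1460 ± 150 for Col4a5 and 1874 ± 414 against 1526 ± 529 for Col4a6 (SD, n = 3), with groups that overlapped. Over the 6 chains 3 lay below 0, and summed levels per kilobase were 2766 to 3192 in wild type and 2840, 2247 and 1778 in knockout libraries 1 to 3.

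None of the 3 other basement membrane collagens passed a test. Col7a1, the collagen of the anchoring fibrils below the basement membrane, had 15667, 21480 and 16122 normalized counts among wild-type libraries and 17504, 18264 and 18214 in knockout, a log2 difference of 0.03 ± 0.13 (SE) whose sign turned without wild-type library 1 or 3. Col18a1, the precursor of endostatin, had one of −0.07 ± 0.13 (SE). Col15a1, a collagen of vessel and muscle basement membranes, was scarce and scattered, at 0.84, 2.87 and 19.5 in wild type and 1.78, 19.0 and 62.0 in knockout, where 3 reads equal 2.47 to 3.90 normalized counts depending on the library. Its knockout mean was 3.56 times the wild-type mean and its pair differences were 0.60, 2.37 and 1.62, within the spread between libraries (limma adjusted p = 0.993).

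Of the 6 hemidesmosome genes, the integrin beta-4 subunit alone had groups that did not overlap. Itgb4 (chromosome 11, 115974709 to 116008412) had 18259, 19926 and 16657 normalized counts among wild-type libraries and 15730, 14877 and 15821 in knockout. The groups did not overlap, with the means 15.3% apart. The log2 difference was −0.24 ± 0.09 (SE), with −0.22, −0.42 and −0.07 in pairs 1 to 3, and it passed neither limma (adjusted p = 0.885) nor DESeq2 (adjusted p = 0.484, 0.664 under the block and 0.223 under the code term). Itga6 had 10622, 11283 and 9878 in wild type and 10242, 10761 and 11419 in knockout, a log2 difference of 0.03 ± 0.08 (SE). The ratio of Itgb4 to Itga6 per kilobase was 2.21, 2.27 and 2.17 in wild type and 1.98, 1.78 and 1.78 in knockout, without overlap, a ratio chosen for description and not tested. The other ratios computed all overlapped between the groups. They were Col4a1 to Col4a2, Col4a3 to Col4a4, Col4a6 to Col4a5 and Lamb3 to Lama3. An opposite-strand gene covers 7.66% of the exon bases of Itgb4, and the libraries do not mark strand.

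Col17a1 had 73555, 107840 and 57388 normalized counts among wild-type libraries and 82096, 78098 and 59983 in knockout. Wild-type library 2 was the highest and the DM24 libraries the lowest of both groups. The log2 difference of −0.08 ± 0.25 (SE) changed sign without wild-type library 2 or knockout library 3 and under quantile normalization (0.20). The plakin genes Plec and Dst had −0.02 ± 0.12 and −0.22 ± 0.16 (SE), and the tetraspanin Cd151, which associates with laminin-binding integrins, 0.09 ± 0.08 (SE). Over the 6 hemidesmosome genes 4 lay below 0 with a median of −0.05, and none passed limma or DESeq2 in any of the 3 designs.

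Both laminin receptors outside the hemidesmosome were lower in each knockout library. Bcam (chromosome 7, 19756131 to 19771016, minus strand) encodes the Lutheran glycoprotein, an immunoglobulin family receptor for the laminin alpha-5 chain. It had 16972, 19744 and 15649 normalized counts among wild-type libraries and 13781, 12490 and 10056 in knockout. The highest knockout library lay below the lowest wild-type library, and the DM24 library was the lowest of each group. The means were 17455 ± 2090 and 12109 ± 1892 (SD, n = 3), 30.6% apart. The log2 difference was −0.53 ± 0.15 (SE), with −0.30, −0.66 and −0.64 in pairs 1 to 3. In DESeq2 Bcam missed the threshold with no term (adjusted p = 0.124) and passed it under the replicate block (adjusted p = 0.00225) and under the code term (adjusted p = 3.8e-05). Under the code term it was also called without each of the 4 DM22 libraries in turn (highest adjusted p = 0.0421), and by DESeq2 in the DM22 libraries alone (adjusted p = 0.0183). Without a term, 0 of the 6 DESeq2 fits that left out a library called Bcam (adjusted p from 0.0578 to 0.870). An opposite-strand gene covers 1.63% of its exon bases. By limma Bcam did not pass without a term, under the block or under the code term (adjusted p = 0.722, 0.323 and 0.169). Dag1 (dystroglycan), a receptor for laminins, agrin and perlecan, had 7404, 6162 and 6249 in wild type and 5972, 5993 and 5293 in knockout. Its log2 difference was −0.20 ± 0.10 (SE), with groups that did not overlap but lay close (DESeq2 adjusted p = 0.970, 0.912 under the block and 0.468 under the code term).

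In the Fraser complex and nephronectin group 4 of 5 genes lay above 0, with a median of 0.26, but the pair medians were 0.11, 1.08 and −0.37. Frem1 (chromosome 4, 82897920 to 83052339), which assembles with Fras1 and Frem2 at the epidermal basement membrane, had 297, 191 and 261 normalized counts among wild-type libraries and 363, 405 and 386 in knockout. Each knockout library lay above each wild-type library, and the log2 difference was 0.64 ± 0.18 (SE), with 0.29, 1.08 and 0.56 in pairs 1 to 3. Frem1 passed neither limma (adjusted p = 0.722) nor DESeq2 (adjusted p = 0.227, 0.302 under the block and 0.123 under the code term). Its partners were not compared with it by a test. Frem2 had 10882, 9109 and 9132 normalized counts among wild-type libraries and 10588, 11272 and 6561 in knockout. Knockout library 3 was the lowest of the 6. The log2 difference of Frem2 was −0.07 ± 0.22 (SE). Fras1 had one of 0.26 ± 0.40 (SE), with wild-type library 2 the lowest at 1540.

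Npnt (nephronectin), a ligand of integrin alpha-8 beta-1 made by the hair bulge, had 2758, 2206 and 3157 normalized counts among wild-type libraries and 3652, 3823 and 2256 in knockout. Both DM22 knockout libraries were the highest of the 6, and the DM24 knockout library was near the lowest. DESeq2 called Npnt higher in the DM22 libraries alone (adjusted p = 0.0125) and not over all 6 (adjusted p = 1.0). The difference between the codes was tested as an interaction in limma, which called 0 of 13671 genes and no member (lowest adjusted p = 0.867). At an unadjusted p under 0.05 it had 748 genes (5.47%) and 5 of the 40 members, Npnt with the lowest p of them and Frem2, Lama1, Nid1 and Col4a2. Egfl6, an EGF repeat protein of the hair follicle basement membrane, had 671, 357 and 726 in wild type and 723, 913 and 583 in knockout, with pair differences of 0.11, 1.35 and −0.32.

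Transcripts of both SMOC genes were higher in each knockout library, and Smoc1 passed DESeq2 under the block and the code term. Smoc1 (chromosome 12, 81026808 to 81186414, plus strand) encodes a secreted calcium-binding protein of basement membranes from the SPARC family that also antagonizes BMP signalling. It had 45.4, 20.1 and 120 normalized counts among wild-type libraries and 174, 211 and 483 in knockout. Each knockout library lay above each wild-type library, and the DM24 library was the highest of its group in both. The means were 61.7 ± 51.7 and 289 ± 169 (SD, n = 3), a ratio of 4.69. The log2 difference was 2.42 ± 0.70 (SE), with 1.91, 3.33 and 2.0 in pairs 1 to 3, and it ran from 1.81 to 3.06 when each library was left out in turn. In DESeq2 Smoc1 missed the threshold with no term (adjusted p = 0.0965) and passed it under the replicate block (adjusted p = 1.5e-07) and under the code term (adjusted p = 1.1e-09). Under the code term it was called without each of the 4 DM22 libraries in turn, and without a term it was called in 1 of the 6 fits that leave out a library, the one without wild-type library 3. By limma its adjusted p was 0.733 without a term, 0.218 under the block and 0.117 under the code term.

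Smoc2 (chromosome 17, 14279506 to 14404790), the paralogue, was far more abundant, at 1019 normalized counts per kilobase against 50.2 for Smoc1. It had 6043, 4635 and 7068 normalized counts among wild-type libraries and 7437, 9638 and 7668 in knockout, without overlap. The log2 difference was 0.49 ± 0.18 (SE), with 0.30, 1.06 and 0.12 in pairs 1 to 3. DESeq2 did not call it over all libraries (adjusted p = 0.473, 0.363 under the block and 0.172 under the code term) and called it in the DM22 libraries alone (adjusted p = 0.0298). Fbln1 (fibulin-1), an elastic fibre and basement membrane glycoprotein, lay the other way, with means of 4286 ± 732 for wild type and 3336 ± 531 for knockout (SD, n = 3), with groups that overlapped and a log2 difference of −0.36 ± 0.17 (SE). Sparc and Tinagl1 had log2 differences of 0.02 ± 0.53 and −0.09 ± 0.45 (SE).

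Along the label codes, the share of members that differed was below that of all genes tested. In a limma fit with genotype, 923 of 13671 genes (6.75%) differed between the DM24 and DM22 libraries, and 2 of the 40 members were among them. Sparc, a collagen-binding matricellular protein, had 537 and 723 normalized counts in the DM24 libraries of wild type and knockout against 185 to 317 in the DM22 libraries (log2 difference 1.27, adjusted p = 0.0465). Tinagl1, a tubulointerstitial nephritis antigen-like matrix protein, had 722 and 842 against 271 to 436 (log2 difference 1.06, adjusted p just under the threshold of 0.05). Lama2, Lama4, Nid1 and Col15a1 were also higher in both DM24 libraries than in each DM22 library and did not pass (adjusted p = 0.0553 for Lama2 and 0.0839 for Col15a1). Lamb2, Lamb3, Col4a6, Col17a1 and Dst were lower in both DM24 libraries and did not pass either (lowest adjusted p = 0.0695, for Col4a6). The codes thus did not overlap for 6 members with DM24 higher and 5 with DM24 lower, or 15% and 12.5% of the 40, against 19.0% and 20.2% of all genes tested.

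Of the 6 tested fibroblast markers, Dcn alone passed the same limma fit for the codes. Among the tested markers of the other lists, the basal Trp63, the tumour marker Ptch1 and the melanocyte marker Mitf passed, lower in DM24. Their adjusted p was 0.0474, 0.0393 and 0.0400. The mural marker Notch3 passed higher (adjusted p = 0.0289), and the rest of those markers did not pass. The fibrillar collagen Col3a1 had 367 and 163 normalized counts in the DM24 libraries against 0 to 48.6 in the others, and Col1a1 354 and 154 against 29.7 to 82.4 (adjusted p = 0.0703 and 0.0634). The proteoglycan Dcn had 2193 and 1127 in the DM24 libraries against 5275 to 9253 in the others (log2 difference −2.10, adjusted p = 0.0248). Col1a2 was also higher in both DM24 libraries (adjusted p = 0.157), while Pdgfra (22.1 and 32.9 against 14.8 to 34.5) and Thy1 (169 and 378 against 318 to 975) overlapped between the codes. None of the 10 fibroblast markers was at 0 in all libraries. The part of such cells in the levels of Sparc, Tinagl1, Lama2, Lama4 and Col15a1 was not tested. For Ntn4, Bcam and Smoc1 the knockout libraries lay on the same side of the wild-type libraries within each code. Groups that do not overlap fix that in advance, and it holds for each member without overlap.

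**Figure D4:**
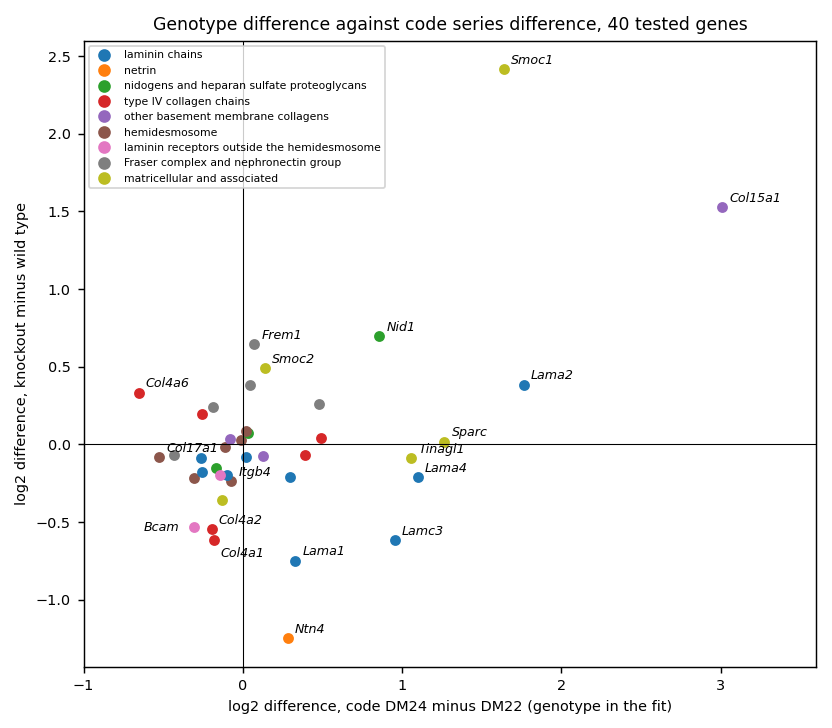
Log2 difference between genotypes (knockout minus wild type, vertical axis) against log2 difference between label codes (DM24 minus DM22 with genotype in the fit, horizontal axis) for the 40 tested genes, coloured by role. Ntn4 lies far from 0 on the vertical axis and near 0 on the horizontal, Sparc, Tinagl1 and Lama4 the reverse, and Smoc1 and Col15a1 are high on both.

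Genes that build, bind and remodel the basement membrane were counted from 3 further lists. Of 25 tested genes for assembly and modification, 15 lay below 0 with a median of −0.02. DESeq2 called 1 lower without a term (all genes 0.351%), 1 under the block (0.834%) and 2 under the code term (1.46%), and none higher. P3h1 (listed as Lepre1), a prolyl 3-hydroxylase of collagens, had 454, 480 and 519 normalized counts among wild-type libraries and 330, 351 and 333 in knockout, without overlap. It passed DESeq2 without a term (adjusted p = 0.0148) and under the code term (adjusted p = 0.00977), but not under the block (adjusted p = 0.177). Serpinh1 (HSP47), the collagen chaperone of the endoplasmic reticulum, had 34707, 33833 and 11713 in wild type and 24043, 27072 and 7799 in knockout. Its groups overlapped because both DM24 libraries were low, while the pair differences of −0.53, −0.32 and −0.59 had 1 direction. Serpinh1 missed the DESeq2 threshold with no term (adjusted p = 1.0) and passed it under the block (adjusted p = 0.00146) and the series (adjusted p = 1.4e-05).

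Among 22 tested receptors and cytolinkers, 11 lay below 0 with a median of −0.02. Under the code term DESeq2 called 2 lower and 1 higher (all genes 1.46% and 0.724%), under the block 1 higher (0.410%), and without a term 0 (0.527% in either direction). Itga1, the collagen-binding alpha-1 integrin subunit, had 467, 282 and 388 normalized counts among wild-type libraries and 133, 242 and 124 in knockout, without overlap (adjusted p = 0.0183 under the code term and 0.0540 under the block). Itga2, a collagen and laminin receptor subunit of keratinocytes, had 1041, 1115 and 998 in wild type and 688, 702 and 861 in knockout, also without overlap (adjusted p = 0.0172 under the code term and 0.140 under the block). The heparan sulfate proteoglycan Sdc3 was higher, at 826, 1158 and 1053 in wild type and 1894, 2152 and 1240 in knockout (adjusted p = 0.0225 under the block and 0.0243 under the code term). Itga3, the alpha subunit of the other main laminin-332 integrin, had a log2 difference of −0.24 and passed in none of the DESeq2 designs.

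Of 22 tested genes for turnover, 14 lay below 0 with a median of −0.10. DESeq2 called 0 without a term (all genes 0.527%), 2 lower and 1 higher under the block (0.834% and 0.410%), and 1 lower and 1 higher under the code term (1.46% and 0.724%). Mmp2, a gelatinase that cleaves type IV collagen, had 1137, 1585 and 492 normalized counts among wild-type libraries and 2380, 1887 and 1497 in knockout. Its groups overlapped, its pair differences were 1.07, 0.25 and 1.60, and it passed under the block (adjusted p = 0.0152) and the series (adjusted p = 0.00678). Adamts1, a proteoglycan-cleaving metalloprotease, had pair differences of −0.33, −0.51 and −1.27 (adjusted p = 0.0256 under the block and 0.0219 under the code term). Ctsl, a lysosomal cysteine protease, had −0.52, −0.39 and −0.51 (adjusted p = 0.00115 under the block and 0.183 under the code term). None of the genes named from these 3 lists passed limma without a term.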

How the data were processed

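TruSeq v2 libraries were prepared from RNA isolated with Qiagen RNeasy Plus columns, per the labels' protocols. STAR 2.5 and DESeq2 1.18.1 were used with mm10 (GRCm38), per the submitters' processing notes. Counting tool, annotation and strand setting: not given in the sources used here. The authors deposited a signal, read counts divided by 1 size factor per library. For each library 100% of values were multiples of 1 step (tolerance 0.001 reads), so reads were recovered.

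The 13671 genes whose mean reached 10 normalized counts were tested with limma 3.58.1 (R 4.3.3; trend, robust) on log2(normalized count + 1), two-sided, Benjamini-Hochberg over all genes at 0.05. EdgeR 4.0.16 (quasi-likelihood) and DESeq2 1.42.0 were run on the recovered reads. All DESeq2 and edgeR values are from those fits. An exact permutation test of 3 against 3 cannot go below 0.1 and was not run. Limma, edgeR and DESeq2 were run on simulated counts with no term and with the code term. The replicate block and the other fits were not. The calls from that simulation are not given here, and no conclusion is drawn from them.

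Same-numbered libraries deviated together from their group means (correlations 0.333, 0.327 and 0.694, each above 0.1), and the numbers were treated as pairs. That rests on the numbers in the labels, not on a stated shared animal. The crossed DM22 libraries passed 0.1 as well. Knockout library 1 had 0.505 with wild-type library 2, above its same-numbered value, and knockout library 2 had 0.260 with wild-type library 1. The rule thus separates DM22 from DM24 but not number 1 from number 2.

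The members, lists and designs were chosen with earlier results of these data known. Values per library are given for members called by DESeq2 in any design, members whose mean reached 50 and whose groups did not overlap, and the most abundant and most different member of each role, and for others where they show the spread. Further list genes were named where a DESeq2 design called them. Npnt, Egfl6, Itga6, Itga3, Fbln1 and the Col4a3 to Col4a6 genes were named after their values were seen. The symbols of 4 list genes were matched through RefSeq synonyms. Exon lengths and coordinates (1-based) are from GENCODE M21, sequences from RefSeq GRCm38.p6. Low counts limit Nid2, Lama1, Lama2, Lamc3 and Col15a1. The limit of 3 reads covers counting error only.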

Additional observations from a re-analysis of the deposited data

How the results depend on the processing

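Limma called 0 genes with no term, under the replicate block and under the code term (759, 1303 and 1546 at an unadjusted p under 0.05), and edgeR 0 in each (761, 1288 and 1535), whereas DESeq2 called 72, 170 with the replicate block and 299 with the code term, with 1, 3 and 3 members. With the DM24 libraries left out, DESeq2 called 254 genes and 5 members, and limma 2 genes. The cause of these differences was not tested. Leaving out wild-type libraries 1, 2 and 3 gave 24, 228 and 226 DESeq2 calls (1, 1 and 3 members), and leaving out knockout libraries 1, 2 and 3 gave 54, 26 and 238 (3, 1 and 1 members). Under the code term the counts were 130 and 495 without wild-type libraries 1 and 2 (5 and 6 members) and 139 and 85 without knockout libraries 1 and 2 (5 and 3 members). Limma called 0 to 1 genes without each library, and the members without overlap numbered 12 to 17 (30% to 42.5%), against 13.9% to 27.7% of all genes tested, with fewer values to overlap.

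Yap1 passed by DESeq2 at −2.47 with no term, −2.64 under the replicate block and −2.63 under the code term, and on the DM22 libraries alone at −3.12 (limma) and −3.11 (DESeq2). Limma ran from −3.09 to −2.31 without each library. The DESeq2 values were −2.47, −2.44 and −2.50 without wild-type libraries 1 to 3 and −2.19, −2.30 and −3.08 without knockout libraries 1 to 3. Under the code term they were −2.53 and −2.50 without wild-type libraries 1 and 2 and −2.37 and −2.58 without knockout libraries 1 and 2.

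The replicate block changed no DESeq2 call among the members other than those of Bcam and Smoc1. Within single pairs the median log2 difference moved to 0.10 for all members in pair 2, to −0.074 and −0.097 for the laminin chains in pairs 1 and 2, to −1.56 for netrin 4 in pair 1, to −0.22 for nidogens and proteoglycans and −0.76 for type IV collagens in pair 3, to −0.23 for other collagens, −0.36 for hemidesmosome genes and 1.08 for the Fraser group in pair 2, to −0.44 for the laminin receptors in pair 3 (−0.29 under quantile normalization) and to −0.60 for matricellular genes in pair 1. Without each library in turn these medians ran from −0.20 to −0.11 for laminins, −0.47 to 0.14 for type IV collagens and −0.43 to −0.27 for the receptors.

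Over the alternatives the sign of the log2 difference held for 25 of the 40 tested members and turned at least once for 15, and the cause was not tested. The 15 were Lama1, Lama2, Lama4, Lamb2, Col4a3, Col4a4, Col7a1, Col17a1, Col18a1, Itga6, Plec, Fras1, Frem2, Sparc and Tinagl1, with 88 of 1276 values over all members. Of the 18 members named by rule, 4 were among them. Lama1 was at 0.27 by DESeq2 without wild-type library 2. Col7a1 ran from −0.049 to 0.18 in limma without each library, and was at −0.063 (−0.078 under the code term) without wild-type library 1 and −0.046 without wild-type library 3 by DESeq2, and at −0.037 (limma) and −0.055 (DESeq2) on the DM22 libraries alone. Col17a1 was at 0.20 under quantile normalization, ran from −0.29 to 0.16 in limma without each library, and was at 0.16 (0.098 under the code term) without wild-type library 2 and 0.0091 without knockout library 3 by DESeq2. Frem2 was at 0.00069 under quantile normalization, ran from −0.21 to 0.18 in limma without each library, and was at 0.055 without wild-type library 1 and 0.17 without knockout library 3 by DESeq2, and at 0.13 in both tools on the DM22 libraries alone. Of the values of those 18 members under alternatives, 516 kept their direction and side of the threshold, 37 moved past it and 21 changed sign. Limma under the block and the code term returns the log2 difference of the main fit, because the groups are balanced. Those values could not turn, here or among the 1276.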
